A study of Mus musculus with 2 samples.

Results

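The integrated stress response genes described here are 10 genes, picked by symbol from the 32285 genes of the count matrices. They are the eIF2α kinases Eif2ak1 (HRI), Eif2ak3 (PERK) and Eif2ak4 (GCN2), the transcription factors Atf4 and Ddit3 (CHOP), the phosphatase regulator Ppp1r15a (GADD34), and the downstream genes Trib3, Asns, Ddit4 and Gadd45a. All 10 were present in both matrices. Femoral bone marrow of 1 control and 1 DKO mouse, 2 months old, was flushed and sequenced as single cells with 3′ chemistry, giving 1 library per genotype. By the study's methods the control mouse, labelled WT, was a Ddx41 fl/fl littermate that lacked VavCre and kept cGas, and the DKO mouse was VavCre:Ddx41 fl/fl, cGAS-/-. VavCre acts in hematopoietic cells and, by the study's account, also in oocytes and endothelial cells. Loss of Ddx41 and loss of cGas cannot be told apart, since no library with 1 of these changes alone was analysed here. The spread between mice cannot be measured from 1 library a genotype, so no difference was tested. A gene was called higher or lower in DKO at a change of at least 1.5-fold with at least 100 unique molecular identifiers (UMIs) over both libraries, and the 95% intervals cover counting error only. Levels are given as CPM, the UMIs of a gene for every 1000000 UMIs of its class and library.

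In the integrated stress response, kinases that sense different stresses phosphorylate the α subunit of the initiation factor eIF2, which lowers protein synthesis in general and raises translation of Atf4 mRNA through its upstream open reading frames. ATF4 then drives genes of amino acid supply and, with CHOP, the gene of GADD34, which guides a phosphatase back to eIF2α. HRI is the kinase kept in check by heme and is best known in red cell precursors, where it ties globin synthesis to heme supply. UMIs count mRNA, so they measure neither kinase activity nor the translation of Atf4.

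Marrow cells were grouped by marker genes into 17 classes, 5 of them ranges of erythroid-like cells set by the share of hemoglobin UMIs in each cell (under 15%, 15 to 40%, 40 to 75%, 75 to 90%, and 90% or more). Kept were 18740 control cells with 119378277 UMIs (median 4873 in a cell) and 13729 DKO cells with 114830668 UMIs (median 6904). Clusters that met no marker rule (1004 control and 941 DKO cells) were left unnamed. Erythroid-like cells were 41.4% of control and 46.7% of DKO cells, and carried 38.8% and 51.3% of all UMIs. Many late erythroid-like cells lay within 2 percentage points of a limit between ranges, 1422 of 3676 control and 698 of 1418 DKO cells at 75 to 90%, and 899 of 1410 and 1005 of 2620 at 90% or more. Late cells also differed in mix, since the range at 90% or more held 7.52% of control but 19.1% of DKO cells. In all, 75 cell barcodes occurred in both libraries. RNA set free from other cells was bounded in the control library from markers that a class should lack, and the bound is given as the highest share of a gene's UMIs it could make up. Ddx41 itself was at 20.3 CPM in control and 8.0 in DKO over all cells, and Cgas at 13.5 and 7.2. The floxed exons are not given in the sources used here, and 3′ counts need not fall in a deleted part.

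The genes lie on 6 mouse chromosomes (GRCm38, GENCODE M21). The kinases Eif2ak1, Eif2ak3 and Eif2ak4 span chr5:143817788-143904251, chr6:70844515-70905245 and chr2:118388618-118475234, all on the plus strand. Atf4 is at chr15:80255184-80257541 and Ddit3 at chr10:127290774-127296288, also on the plus strand. Ppp1r15a (chr7:45522916-45526268), Trib3 (chr2:152337422-152344032), Asns (chr6:7675169-7693254), Ddit4 (chr10:59949669-59951834) and Gadd45a (chr6:67035096-67037457) are on the minus strand. Genes on the opposite strand overlap Eif2ak1 (Ankrd61, Aimp2), Ddit3 (Mars and Gm4189), Ppp1r15a (Tulp2), Eif2ak3 (Gm43292) and Gadd45a (E230016M11Rik). Another Ddit3 identifier that overlaps the first had 0 UMIs in both libraries.

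Promoter letters are shown for the 3 genes whose window held one of the searched motifs, because ATF4 and its partners bind DNA of this kind. Windows reached from 250 bases before to 50 after each RefSeq start (GRCm38.p6), and all 10 genes matched the table. The C/EBP-ATF response element was searched as TGATGNAA and the cAMP response element as TGACGTCA, on both strands. Of 32851 mouse windows, 3.97% held the former and 1.79% the latter. Among the 10 genes, Asns and Trib3 held the former, Ppp1r15a held the latter, and none held the endoplasmic reticulum stress element, present in 0.119% of windows. The stretches below run 5′ to 3′ on the gene's strand, with the motif in capitals.
Asns, chr6:7693214-7693243, minus strand: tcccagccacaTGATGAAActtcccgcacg
Trib3, chr2:152344030-152344054, minus strand: gctcaggtTTACATCAgccgggcgg
Ppp1r15a, chr7:45526269-45526368, minus strand: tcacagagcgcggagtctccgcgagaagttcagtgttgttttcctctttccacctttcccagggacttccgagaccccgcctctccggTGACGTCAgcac
The Asns match sits at -23 to -16 from the RefSeq start. The Ppp1r15a match, at -12 to -5, reads the same on both strands. The Trib3 match is on the opposite strand, at bases 15 to 22 of the RefSeq transcript. A match describes letters and does not show binding.

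Of the 170 pairs of a gene and a class, 95 had at least 100 UMIs over both libraries, and these 95 cover 9 of the 10 genes. DKO was higher in 14 pairs and lower in 14, against 8.93% higher and 5.32% lower among the 94056 pairs of all genes with that many UMIs. The erythroid-like ranges held 6 of the higher and 7 of the lower pairs. Under 15% hemoglobin 1 of 8 genes was higher and 0 lower (all genes 5.1% and 4.04%). At 15 to 40% it was 0 and 2 of 6 (3.69% and 4.52%), and at 40 to 75% 0 and 2 of 6 (15.3% and 8.62%). At 75 to 90% it was 2 and 2 of 5 (28.7% and 24.2%), and at 90% or more 3 and 1 of 4 (11.3% and 38.6%). No gene was called in T or NK-like cells (5 genes with enough UMIs, against 10.3% of all genes higher and 5.24% lower), macrophage-like cells (5 genes, 7.6% and 4.3%), megakaryocyte-like cells (4 genes, 12.2% and 10.0%) or plasma-like cells (1 gene, 10.6% and 12.8%), and in stromal-like cells 0 had enough UMIs (23.7% and 4.35%). Over all cells of a library together 0 of the 9 were called, against 3.06% of all genes higher and 13.5% lower. The genes differed widely in where their mRNA was found. In the control and DKO library, erythroid-like cells carried 86.1% and 93.5% of the Ppp1r15a UMIs, 69.8% and 71.1% of Gadd45a, 66.4% and 78.8% of Eif2ak1, and 63.9% and 76.8% of Asns. They carried 47.8% and 53.7% of Ddit3 and 35.2% and 49.9% of Atf4. The remaining kinases were found mostly elsewhere, with 5.54% and 5.62% of Eif2ak3 and 8.86% and 11.7% of Eif2ak4 UMIs in erythroid-like cells, and so was Ddit4 with 4.44% and 3.20%.

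**Figure D1:**
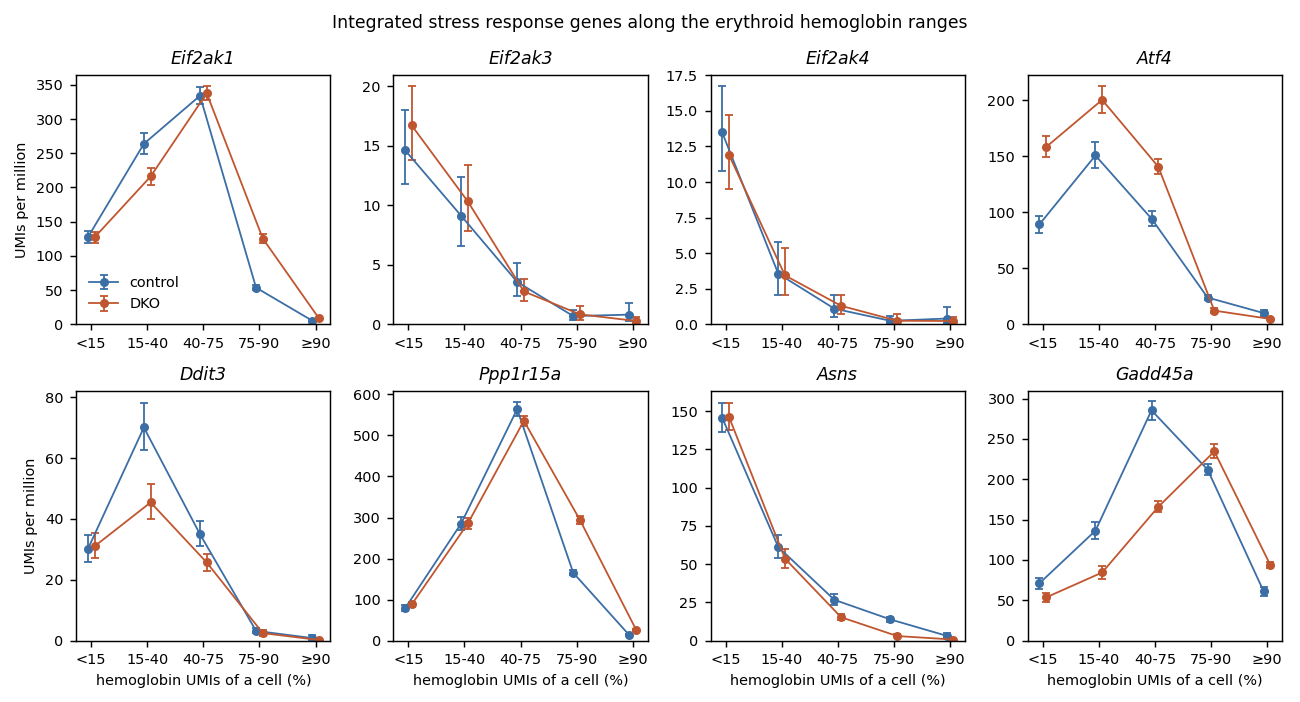
Levels of 8 genes, in CPM (vertical axes), for the control and DKO libraries, with exact Poisson 95% intervals. Horizontal axes give the 5 erythroid-like hemoglobin ranges, as hemoglobin UMIs of a cell in percent. Ppp1r15a and Eif2ak1 peak at 40 to 75% in both libraries on this scale (with hemoglobin left out of the totals, DKO peaks at 75 to 90%), Asns is highest under 15%, and Atf4 lies higher in DKO up to 75% and lower beyond.

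Eif2ak1 encodes HRI, and its mRNA followed the hemoglobin ranges. In the control library it was at 127 CPM under 15% hemoglobin (interval 118 to 136), 264 at 15 to 40% (249 to 279), 334 at 40 to 75% (322 to 347), 53.6 at 75 to 90% (50.5 to 56.9) and 5.43 at 90% or more (3.88 to 7.40). In the DKO library the same ranges had 127 (119 to 136), 216 (204 to 229), 338 (328 to 348), 125 (119 to 132) and 8.94 CPM (7.71 to 10.3). On this scale both libraries were highest at 40 to 75%, and no neighbouring ranges overlapped in their intervals. With hemoglobin left out of the totals, the highest range stayed at 40 to 75% in control and was 75 to 90% in DKO. Outside the erythroid-like cells, control levels lay between 28.1 in granulocyte-monocyte progenitor-like and 68.7 CPM in megakaryocyte-like cells among the 10 classes with at least 100 UMIs, all below the 3 earlier erythroid ranges. DKO was higher at 75 to 90% (log2 ratio 1.23, 1.11 to 1.34), in a range where 28.7% of all genes were called higher and 24.2% lower. It was also higher at 90% or more (0.72, 0.22 to 1.25, from 40 and 190 UMIs, with free RNA up to 33.5% of the former), where 11.3% of all genes were called higher, 38.6% lower, and the median of all genes was -0.33, but this call ended with cell calling by an order-of-magnitude threshold alone (0.57). After the data had been seen, cells were also matched to equal numbers of both libraries in every 1-point step of hemoglobin share. The ratios were then 0.70 at 75 to 90% and 1.27 at 90% or more. In the 40 to 75% range, where the gene peaks, the log2 ratio was 0.02 (-0.05 to 0.09), and at 15 to 40% it was -0.29 (-0.41 to -0.17). After each cell was thinned to 2000 UMIs, 47.9% of control and 47.0% of DKO cells of the 40 to 75% range had an Eif2ak1 UMI (79.8% and 87.5% before thinning). In dendritic-like cells Eif2ak1 was at 35.8 and 56.8 CPM (log2 ratio 0.67, 0.20 to 1.13), a class with 11.4% of all genes called higher and 5.21% lower. This last call ended under 5 of the 14 alternatives, TMM (0.50) and median-of-ratios scaling (0.49) among them, with 0.42 as the lowest value when clusters were split more finely.

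Eif2ak3 encodes PERK, the kinase of the endoplasmic reticulum membrane that responds to unfolded proteins. Its control level was 98.4 CPM in mature B-like cells (88.7 to 109) and 78.6 in early B-like cells (71.5 to 86.3), whose intervals do not overlap, followed by 43.5 in dendritic-like and macrophage-like, 36.9 in neutrophil-like, 34.8 in monocyte-like, 26.7 in T or NK-like and 23.6 in basophil or mast-like cells, where neighbours overlap. Along the erythroid ranges it was at 14.6 CPM in control and 16.7 in DKO under 15% hemoglobin, and below 1 CPM from 75% on. DKO lay above control in 10 of the 10 classes with at least 100 UMIs, at log2 ratios between 0.05 and 0.99. The median of all genes was also above 0 in these classes, between 0.04 and 0.18. The 3 classes called higher were mature B-like cells, at 98.4 and 158 CPM (0.68, 0.48 to 0.88, with 7.92% of all genes called higher), neutrophil-like cells, at 36.9 and 57.9 (0.65, 0.52 to 0.78, with 6.64%), and granulocyte-monocyte progenitor-like cells, at 16.8 and 33.4 (0.99, 0.59 to 1.40, with 21.0%). Early B-like cells had 78.6 and 111 CPM (0.50, 0.32 to 0.68), under the fold used for calls. Thinned to 2000 UMIs, 17.4% of control and 23.2% of DKO mature B-like cells had an Eif2ak3 UMI (22.7% and 36.9% before thinning). The mature B-like ratio was 0.58 with TMM scaling, just under the fold used for calls. The neutrophil-like call ended with cell calling by an order-of-magnitude threshold alone (0.35), with a mitochondrial maximum of 10% (0.52) and with TMM scaling (0.57), and the progenitor-like call with a mitochondrial maximum of 10% (0.55) and with doublets kept (0.56).

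Eif2ak4 encodes GCN2, which senses uncharged tRNA, and no class was called for it. Its control levels were 34.3 CPM in mature B-like, 30.9 in basophil or mast-like, 29.1 in early B-like, 19.7 in granulocyte-monocyte progenitor-like, 15.9 in monocyte-like, 13.5 in erythroid-like cells under 15% hemoglobin and 5.06 in neutrophil-like cells. In DKO the same classes had 44.5, 33.4, 37.0, 23.6, 19.2, 11.9 and 4.03 CPM. The log2 ratios of these 7 classes lay between -0.33 and 0.38. PKR (Eif2ak2), the remaining eIF2α kinase and no member of the set, was at 34.8 and 24.0 CPM over all cells (-0.54).

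Atf4, the transcription factor at the centre of the response, differed in opposite directions in early and late erythroid-like cells. It was at 89.2 CPM in control (81.9 to 97.0) and 158 in DKO (149 to 168) under 15% hemoglobin, a 1.77-fold higher level (log2 ratio 0.83, 0.68 to 0.98) in a range where 5.1% of all genes were called higher and 4.04% lower. At 15 to 40% hemoglobin it was at 151 and 201 CPM (0.41, 0.27 to 0.55), and at 40 to 75% at 94.4 and 141 (0.58, 0.45 to 0.70, just under the fold used for calls). The first 3 ranges thus lay above control without overlap of their intervals, and the last 2 below it. At 75 to 90% Atf4 was lower in DKO, at 24.0 and 12.3 CPM (-0.97, -1.24 to -0.70), where 28.7% of all genes were called higher and 24.2% lower (median 0.08). At 90% or more, where 11.3% of all genes were called higher and 38.6% lower (median -0.33), it was at 10.0 and 4.80 (-1.07, -1.51 to -0.61). This last ratio rests on 74 and 102 UMIs, of which free RNA could give up to 21.8% in control, and it moved to -0.04 with TMM and to 0.05 with median-of-ratios scaling, which shift all genes of that range by 1.03 and 1.11. Thinned to 2000 UMIs, 16.9% of 402 control cells (13.4% to 20.9%) and 28.8% of 306 DKO cells (23.8% to 34.2%) under 15% hemoglobin had an Atf4 UMI, and unthinned 28.5% and 40.5%. In the 11 classes outside the erythroid ranges with at least 100 UMIs, Atf4 lay between 41.1 and 92.8 CPM in control, and DKO was above control in 10 of them, at log2 ratios from -0.18 in T or NK-like to 0.45 in neutrophil-like cells (51.7 and 70.6 CPM), with no call. The median of all genes in these classes lay between -0.06 in plasma-like and 0.18 in granulocyte-monocyte progenitor-like cells.

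Ddit3 encodes CHOP, a transcription factor induced by ATF4. In control cells it was at 30.1 CPM under 15% hemoglobin (25.9 to 34.7), 70.1 at 15 to 40% (62.5 to 78.3), 35.0 at 40 to 75% (31.04 to 39.3) and 3.18 at 75 to 90% (2.45 to 4.06). In DKO these were 30.99, 45.4, 25.7 and 2.44 CPM. Both libraries were highest at 15 to 40%, where DKO was lower (log2 ratio -0.63, -0.87 to -0.38) in a range with 3.69% of all genes called higher and 4.52% lower, and it was at -0.45 (-0.68 to -0.21) at 40 to 75%. Atf4 mRNA was above control in both of these ranges. The call at 15 to 40% ended under 4 of the 15 alternatives, such as doublets kept (-0.57), and was at -0.37 when every cell with at least 15% hemoglobin was taken as erythroid. Thinned to 2000 UMIs 14.4% of control and 11.8% of DKO cells had a Ddit3 UMI (39.1% and 32.8% before thinning), with overlapping intervals. In the 4 non-erythroid classes with at least 100 UMIs, Ddit3 was between 7.47 and 17.4 CPM in control, and the log2 ratios were between -0.15 and 0.17.

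Ppp1r15a encodes GADD34, which targets protein phosphatase to eIF2α and so reverses the block on translation. In the control library it was at 78.2 CPM under 15% hemoglobin (71.3 to 85.5), 285 at 15 to 40% (270 to 301), 564 at 40 to 75% (548 to 581), 165 at 75 to 90% (160 to 171) and 13.04 at 90% or more (10.6 to 15.9). In DKO the ranges had 87.9 (81.2 to 95.1), 285 (271 to 300), 536 (523 to 548), 294 (284 to 304) and 26.6 CPM (24.4 to 28.9). Both were highest at 40 to 75%, but with hemoglobin left out of the totals DKO was highest at 75 to 90%. Up to 75% hemoglobin the log2 ratios were between -0.07 and 0.17. DKO was higher at 75 to 90% (0.83, 0.76 to 0.90) and at 90% or more (1.03, 0.71 to 1.36, from 96 and 565 UMIs, with free RNA up to 18.9% of the former). Of all genes 28.7% were called higher at 75 to 90% and 11.3% at 90% or more. With equal numbers of cells of both libraries in every 1-point step of hemoglobin share, an alternative chosen after the data had been seen, the ratio at 75 to 90% was 0.46, which ends the call, and at 90% or more it was 1.55. In the 40 to 75% range a Ppp1r15a UMI was found in 66.4% of control and 65.8% of DKO cells thinned to 2000 UMIs (92.4% and 95.4% before thinning).

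In B-like cells Ppp1r15a was lower in DKO. Early B-like cells had 25.0 CPM in control and 14.6 in DKO (log2 ratio -0.78, -1.18 to -0.38), in a class with 3.14% of all genes called higher and 3.04% lower, and free RNA could give up to 13.9% of its control UMIs there. Cell calling by the order-of-magnitude threshold alone moved this ratio to -1.51. Immediate early genes that respond to cell handling moved in the same class, with 4 of the 9 that had at least 100 UMIs called lower, none higher and a median log2 ratio of -0.58 (all genes 0.07). Jun was at 60.5 and 34.2 CPM there (-0.82, -1.08 to -0.57) and Ier2 at 46.1 and 28.8 (-0.68), while Btg2 was at 387 and 380 (-0.03) and Zfp36 at 119 and 105 (-0.17). Their part in the Ppp1r15a difference was not tested. In mature B-like cells Ppp1r15a was at 48.3 and 21.6 CPM (-1.16, -1.60 to -0.75) and Gadd45a at 45.9 and 23.2 (-0.98, -1.41 to -0.57), both called lower in a class with 4.66% of all genes called lower. Both of these calls rest on 26 control cells that formed a cluster without DKO cells. Without those cells Ppp1r15a was at 27.7 and 21.6 CPM (-0.36, -0.84 to 0.10) and Gadd45a at 34.0 and 23.2 (-0.55, -0.99 to -0.11), and neither was called. With doublets kept the ratios were -0.11 and -0.48. Ppp1r15a was also at 14.9 and 10.8 CPM in monocyte-like cells (-0.46) and at 9.53 and 7.55 in neutrophil-like cells (-0.34), where free RNA could give up to 24.1% and 44.5% of the control UMIs.

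Trib3, a pseudokinase gene switched on by ATF4 and CHOP, was barely detected. It had 47 UMIs in all control cells and 51 in all DKO cells, and no class reached 100. Neutrophil-like cells had 11 and 18 of them and early B-like cells 8 and 8, and the erythroid-like cells 18 and 9. At 90% or more hemoglobin both libraries had 0 UMIs, which allows up to 0.407 CPM in control and 0.141 in DKO by a limit of 3 counts. Erythroid-like cells thus carried 38.3% of the control and 17.6% of the DKO Trib3 UMIs, against 38.8% and 51.3% of all UMIs. With no class at 100 UMIs, no difference could be called at this depth.

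Asns encodes asparagine synthetase and is a direct target of ATF4. It parted from Atf4 in the earlier erythroid ranges, while both were lower in DKO at 75 to 90% hemoglobin. In control it was at 146 CPM under 15% hemoglobin (136 to 156), 61.2 at 15 to 40% (54.2 to 68.9), 26.6 at 40 to 75% (23.2 to 30.4), 13.8 at 75 to 90% (12.2 to 15.5) and 3.12 at 90% or more (1.98 to 4.69). In DKO it was at 146 (138 to 156), 53.6 (47.6 to 60.0), 15.3 (13.2 to 17.5), 2.94 (2.05 to 4.09) and 0.659 CPM (0.360 to 1.105). Under 15% hemoglobin, where Atf4 was higher in DKO, the log2 ratio of Asns was 0.01 (-0.12 to 0.14), and 19.2% of control and 20.9% of DKO cells thinned to 2000 UMIs had an Asns UMI (27.4% and 29.3% before thinning). Asns was lower in DKO at 40 to 75% (-0.80, -1.09 to -0.52), a range with 15.3% of all genes called higher and 8.62% lower. It was also lower at 75 to 90% (-2.23, -2.78 to -1.72, from 278 and 35 UMIs), where 28.7% of all genes were called higher and 24.2% lower. Under every alternative tried the ratio at 75 to 90% stayed between -2.45 and -1.85. Outside the erythroid ranges Asns was lower in neutrophil-like cells, at 24.8 and 15.1 CPM (-0.72, -0.93 to -0.51, with 3.9% of all genes called lower) and in granulocyte-monocyte progenitor-like cells, at 28.8 and 10.6 (-1.44, -2.00 to -0.91, with 3.04%). The progenitor-like call ended with a mitochondrial maximum of 10% (-0.52). Monocyte-like cells had 4.46 and 4.19 CPM (-0.09).

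Ddit4 encodes REDD1, an inhibitor of mTORC1 that ATF4 and glucocorticoids induce, and erythroid-like cells had 28 of its UMIs in control and 21 in DKO over all ranges. It was found in T or NK-like cells at 29.3 and 36.1 CPM (log2 ratio 0.30, -0.20 to 0.79), in basophil or mast-like cells at 13.6 and 17.3 (0.35) and in early B-like cells at 16.3 and 15.6 (-0.07). DKO was higher in monocyte-like cells, at 3.71 and 9.04 CPM (1.29, 0.82 to 1.75, with 5.11% of all genes called higher), dendritic-like cells, at 22.1 and 39.3 (0.83, 0.24 to 1.40), mature B-like cells, at 17.4 and 29.0 (0.74, 0.26 to 1.22), and neutrophil-like cells, at 2.11 and 3.18 (0.59, 0.01 to 1.18). The neutrophil-like call was lost under 6 of the 12 alternatives, with 0.51 under TMM scaling as the lowest value. Thinned to 2000 UMIs, 0.556% of control (0.224% to 1.14%) and 2.53% of DKO monocyte-like cells (1.42% to 4.13%) had a Ddit4 UMI, against 0.168% and 0.176% in the erythroid-like range of 40 to 75% (unthinned 4.77% and 12.1% against 0.492% and 0.663%). Median depth was 10219 and 13179 UMIs in monocyte-like cells and 6417.5 and 10657.5 in that range. Other glucocorticoid-induced genes were read in the same classes. Of the 8 listed, 7 had at least 100 UMIs in monocyte-like cells, with 4 called higher, 0 lower and a median log2 ratio of 0.73 (all genes 0.10), and 7 in neutrophil-like cells, with 5 higher (6.64% over all genes), 0 lower and a median of 0.66 (all genes 0.11). In dendritic-like cells 2 of 3 were higher (11.4% over all genes), with a median of 0.67, and in mature B-like cells 1 of 4 (7.92%), with a median of 0.53. Fkbp5, a chaperone gene of the glucocorticoid receptor, was at 73.9 and 161 CPM in monocyte-like cells (1.12, 1.02 to 1.22), and Tsc22d3 (GILZ) at 77.3 and 129 (0.74). In T or NK-like cells, where Ddit4 was not called, 3 of the 5 with at least 100 UMIs were higher (10.3% over all genes, median 0.77). Summed over the list, the level went from 328 to 542 CPM in monocyte-like and from 364 to 564 in neutrophil-like cells. The part of this list in the Ddit4 values was not tested.

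**Figure D2:**
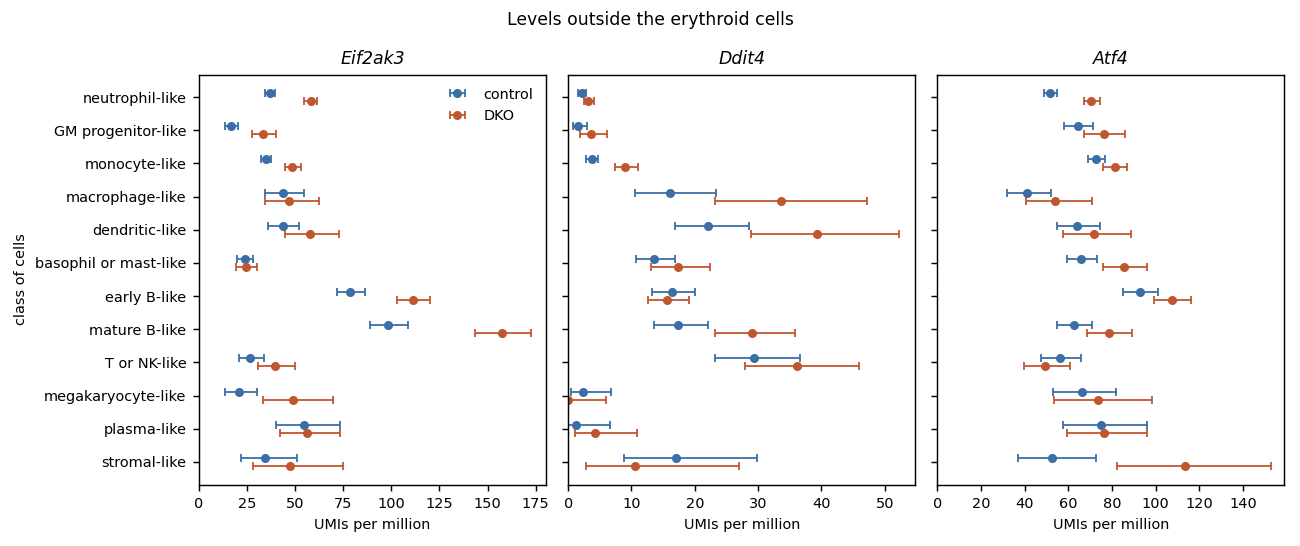
Levels outside the erythroid-like cells (horizontal axes, CPM with exact Poisson 95% intervals) by class of cells (vertical axis) in the control and DKO libraries. Eif2ak3 in mature B-like cells sits at 98.4 in control and 158 in DKO, and DKO lies to the right of control for Ddit4 in monocyte-like cells, at 9.04 against 3.71.

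Gadd45a, a stress sensor that slows the cell cycle, was lower in DKO in the middle erythroid ranges. Control levels were 70.8 CPM under 15% hemoglobin (64.4 to 77.8), 136 at 15 to 40% (126 to 147), 285 at 40 to 75% (274 to 297), 212 at 75 to 90% (206 to 218) and 60.8 at 90% or more (55.3 to 66.7). DKO had 53.4 (48.2 to 59.1), 84.3 (76.8 to 92.4), 166 (159 to 173), 234 (226 to 243) and 93.4 CPM (89.3 to 97.6). The highest level was thus at 40 to 75% in control and at 75 to 90% in DKO, but with hemoglobin left out of the totals both libraries were highest at 75 to 90%. DKO was lower at 15 to 40% (log2 ratio -0.69, -0.87 to -0.51) and at 40 to 75% (-0.78, -0.87 to -0.70), and higher at 90% or more (0.62, 0.47 to 0.77). Of all genes 4.52% were called lower at 15 to 40%, 8.62% lower at 40 to 75% and 11.3% higher at 90% or more. The call at 15 to 40% ended when every cell with at least 15% hemoglobin was taken as erythroid (-0.49), and that at 90% or more with cell calling by the order-of-magnitude threshold alone (0.39). In cells of the 40 to 75% range thinned to 2000 UMIs, 40.4% of control (37.6% to 43.3%) and 26.6% of DKO cells (24.1% to 29.3%) had a Gadd45a UMI (72.3% and 68.8% before thinning). Trp53 targets, genes that like Gadd45a answer to DNA damage, had 4 of 11 with at least 100 UMIs in that range, 0 higher and 1 lower (15.3% and 8.62% over all genes), with a median of -0.34 (all genes 0.12). Outside the erythroid ranges Gadd45a was at 85.5 and 96.2 CPM in neutrophil-like (0.17), 80.5 and 84.6 in macrophage-like (0.07) and 81.6 and 106 in megakaryocyte-like cells (0.38). It was lower in monocyte-like cells, at 16.2 and 10.5 (-0.62, with 2.95% of all genes called lower), and in basophil or mast-like cells, at 27.6 and 17.0 (-0.70, with 3.05% higher and 3.31% lower), but the former call ended under 4 of the 15 alternatives, moving to -0.35 with that threshold, and the latter under 2 of the 11, moving to -0.50 with cells of at least 15% hemoglobin taken as erythroid, and free RNA could give up to 24.4% and 13.7% of their control UMIs.

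**Figure D3:**
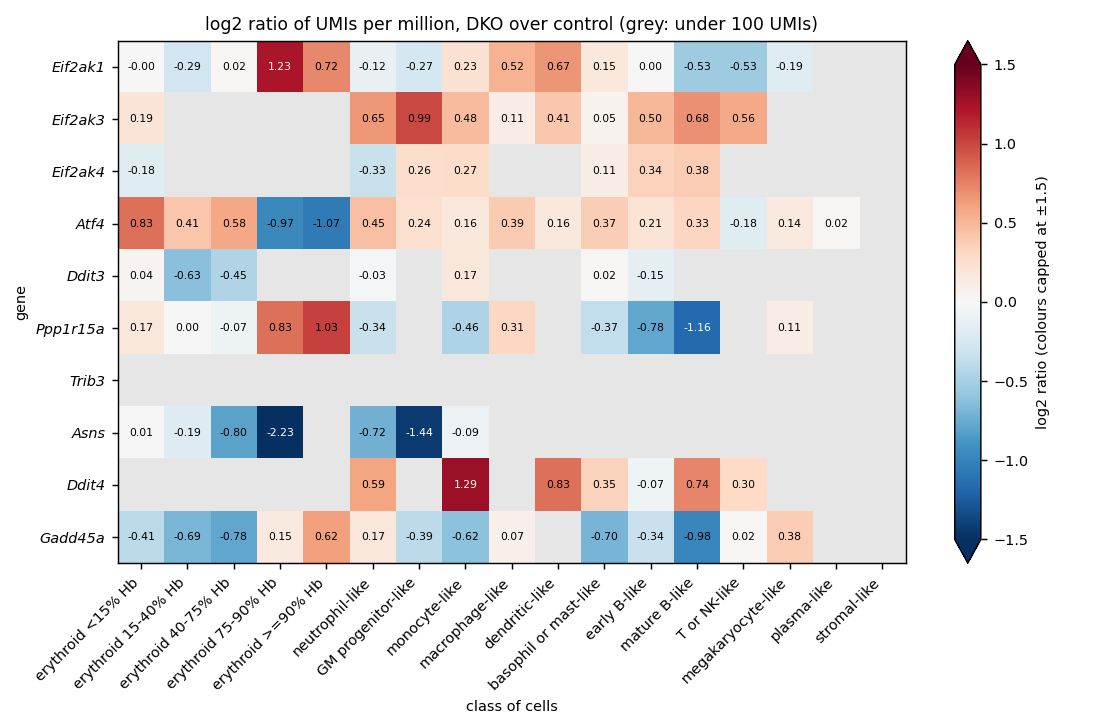
Log2 ratio of CPM, DKO over control, for the 10 genes (vertical axis) in the 17 classes (horizontal axis). Colours are capped at 1.5 on either side and grey marks pairs under 100 UMIs. Atf4 is 0.83 under 15% hemoglobin and -1.07 at 90% or more, Asns reaches -2.23 at 75 to 90%, and Trib3 is grey throughout.

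Because the late ranges hold different mixes of cells in the libraries, the ratios were also read within the 10 erythroid-like clusters, ordered by mean hemoglobin share. The clusters were made from gene counts with the members, Ddx41 and Cgas left out. Each cluster has 1 library per genotype, so these ratios are a description. In 9 of the 10 clusters the mean hemoglobin share was higher in DKO than in control, and in the 5 latest the median log2 ratio of all genes was between -0.71 and -0.42. Atf4 was at 0.78, 1.20 and 0.53 in the 3 earliest clusters, 0.09 in the next and -0.98 in the fifth, and at -1.81, -1.68 and -1.09 in the later clusters with at least 100 UMIs. The early excess and late deficit of Atf4 appeared in both ways of splitting the same cells, but the middle differed. The 40 to 75% range was at 0.58, while the clusters with mean hemoglobin of 51.5% and 71.8% were at 0.09 and -0.98. Asns was at 0.02 and 0.17 in the 2 earliest clusters, at -0.39, -0.87 and -1.94 in the next 3, and at -3.95 in the only later cluster with at least 100 UMIs, which had 129 and 5. For Gadd45a 7 of 10 clusters had an interval wholly below 0 and 0 wholly above, with ratios between -0.63 and 0.10. The lowest ratio was in a cluster where the median of all genes was -0.08. In the clusters with mean hemoglobin of 51.5% and 71.8% Gadd45a was at -0.30 and -0.50 (all genes -0.31 and -0.32). The 40 to 75% range was at -0.78. In the 5 latest clusters the medians of all genes were -0.42, -0.57, -0.70, -0.56 and -0.71, and Gadd45a lay above all but the -0.42. With hemoglobin left out of the totals the Gadd45a ratios lay between -0.53 and 0.55, and were above 0 in the 4 latest clusters (0.55, 0.25, 0.22 and 0.08). On total UMIs Eif2ak1, Ppp1r15a and Gadd45a were not called higher in any of the 5 latest clusters. Where these clusters had at least 100 UMIs, Ppp1r15a was at -0.34, -0.77, -0.14 and -0.74, Eif2ak1 at -0.13, -0.18 and -0.77, and Gadd45a at -0.44, 0.10, -0.14, -0.20 and -0.44. In the cluster just before them, with an all-gene median of -0.32, Ppp1r15a was at -0.07, Eif2ak1 at 0.16 and Gadd45a at -0.50. The ratios of these genes at 90% or more hemoglobin also moved with scaling, to 1.75 and 1.83 for Eif2ak1, 2.05 and 2.14 for Ppp1r15a and 1.65 and 1.73 for Gadd45a under TMM and median-of-ratios scaling. With hemoglobin left out of the totals, Ppp1r15a was between -0.32 and 0.69 over the 10 clusters, and Eif2ak1 between -0.34 and 0.47, with 0.24, 0.21 and -0.34 in the later clusters that had at least 100 UMIs. Counted by cluster instead of range, with the other classes as before, 12 pairs were higher and 20 lower. The share of all genes called was not computed by cluster. With the medians of all genes below 0 in the latest clusters, these counts do not describe the members alone.

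**Figure D4:**
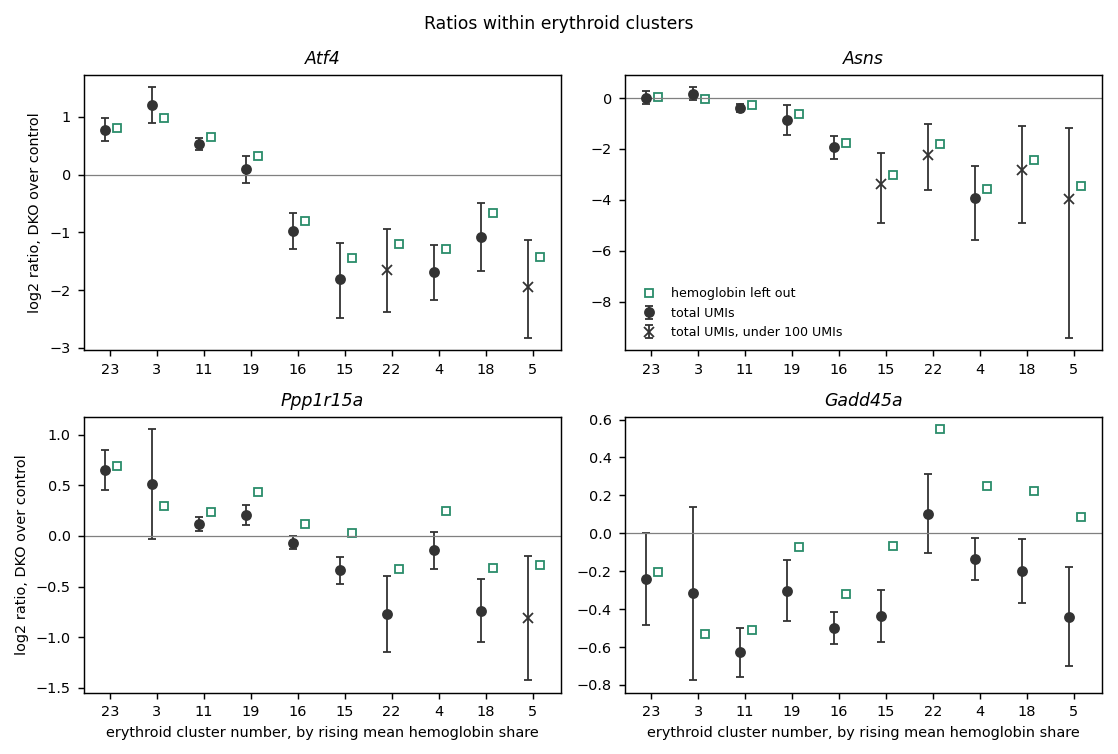
Log2 ratio, DKO over control (vertical axes), within each erythroid-like cluster (horizontal axes, cluster numbers in order of rising mean hemoglobin share). Filled marks use total UMIs with exact 95% intervals, and open squares leave hemoglobin out of the totals. Atf4 goes from 0.78 in the earliest cluster to -1.68 in a late one, and Asns from 0.02 to -3.95.

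Genes around the pathway were read from lists that were chosen with earlier results of these data known. Of 31 further targets of ATF4 and CHOP, 20 had at least 100 UMIs under 15% hemoglobin, with 3 higher, 0 lower and a median log2 ratio of 0.28, against 5.1% higher, 4.04% lower and a median of 0.10 over all genes. Xpot, the export factor of tRNA, was at 42.4 and 67.3 CPM (0.67, 0.45 to 0.89), and the arginine transporter gene Slc7a1 at 70.2 and 110 (0.64, 0.47 to 0.82). The translation repressor gene Eif4ebp1 was at 166 and 132 CPM (-0.33) and the autophagy receptor gene Sqstm1 at 35.9 and 34.4 (-0.06). All 19 aminoacyl-tRNA synthetases had at least 100 UMIs there, with 3 higher, 0 lower and a median of 0.30, against the same background. Iars was at 47.8 and 87.7 CPM (0.88, 0.67 to 1.08) and Tars at 34.3 and 60.2 (0.81, 0.57 to 1.06), while Mars was at 0.04 and Hars at -0.13. At 40 to 75%, 16 targets of ATF4 and CHOP passed, 2 higher and 3 lower with a median of 0.07 (all genes 15.3% higher, 8.62% lower, median 0.12). Slc7a1, 1 of the 2 higher, was at 17.1 and 38.4 CPM (1.17, 0.90 to 1.45). At 75 to 90%, 10 passed, 2 higher and 5 lower with a median of -0.41 (all genes 28.7% higher, 24.2% lower, median 0.08). The glutamine transporter gene Slc1a5, 1 of the 2 higher, was at 16.9 and 39.0 CPM (1.21, 1.003 to 1.41), against the direction of the list's median. The lower targets of both ranges are not named here.

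Of the 17 genes of eIF2 and its regulators, all passed under 15% hemoglobin with 0 called and a median of 0.11 (all genes 5.1% higher, 4.04% lower). At 40 to 75% 10 passed, 1 higher and 2 lower with a median of 0.33 (all genes 15.3% higher, 8.62% lower). Ppp1r15b, the constitutive partner of Ppp1r15a, was the higher gene there, at 23.8 and 41.9 CPM (0.81, 0.57 to 1.06), and Eif2ak2 was among the lower ones, at 38.5 and 23.7 (-0.70). The ATF6 and XBP1 arm of the unfolded protein response had 15 of 17 genes with at least 100 UMIs under 15% hemoglobin, 1 higher and 0 lower (all genes 5.1% and 4.04%), with a median of 0.14, and the chaperone gene Hspa5 was at 159 and 202 CPM (0.35, 0.23 to 0.46). At 75 to 90% this arm had 6, of which 1 was higher and 4 lower (all genes 28.7% and 24.2%) with a median of -1.005, which turned to 0.23 with cells matched on hemoglobin share. Neutrophil-like cells, where Asns was lower, had 22 targets of ATF4 and CHOP with 2 higher and 1 lower (6.64% and 3.9% over all genes) and a median of 0.16 (all genes 0.11). Slc7a11, the cystine transporter gene and 1 of the 2 higher, was at 55.4 and 153 CPM (1.47, 1.37 to 1.57), far from that median.

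The genes most like each member over the 17 classes were found by the correlation of log2(CPM + 5) in the control library. All classes share 1 library and its depth, so these values describe the pattern only. Closest to Eif2ak1 were Tmem86b (r = 0.95 in control, 0.84 in DKO), Narf (0.94, 0.89) and Pigq (0.93, 0.91), and to Ppp1r15a Chac2 (0.96, 0.93), Tmcc2 (0.95, 0.84) and Bsdc1 (0.94, 0.87). Gadd45a was closest to Epb41, which encodes a protein of the red cell membrane skeleton (0.91, 0.90), and Asns to 1700037H04Rik (0.86, 0.63) and Xk (0.85, 0.84). Atf4 was closest to Isca2 (0.95, 0.89) and Top1 (0.95, 0.89), Ddit3 to Lrrc29 (0.95, 0.72), Eif2ak3 to Dgkd (0.96, 0.98), Eif2ak4 to Qser1 (0.96, 0.89) and Ddit4 to Bcl9l (0.95, 0.83). Trib3 was closest to Trim2 (0.82), but in DKO the value was 0.03. Between members, r was 0.84 in control and 0.83 in DKO for Eif2ak1 and Ppp1r15a, 0.74 and 0.88 for Atf4 and Ddit3, 0.78 and 0.72 for Ppp1r15a and Gadd45a, and 0.78 and 0.79 for Eif2ak3 and Eif2ak4.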

How the data were processed

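The deposited matrices hold raw UMI counts per gene and barcode that the authors made with Cell Ranger 7.1.0 on mm10, with every barcode in the control matrix and called cells in the DKO matrix. Control cells were called here with an order-of-magnitude UMI threshold and an ambient test of barcodes from 500 UMIs (false discovery rate 0.01). Cells over 20% mitochondrial UMIs (174 control, 215 DKO) and doublets (335 and 198) were left out. For doublets the automatic threshold set on DKO cells served both libraries, since the control one marked 0 cells. Leiden clusters (resolution 1.0) were named from marker lists, and erythroid-like cells were split by hemoglobin share.

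Counts were summed per class and library and scaled to CPM. Levels have exact Poisson, shares exact binomial and ratios exact conditional binomial 95% intervals. Free RNA was bounded in the control library from markers of other classes. Gene lists and members were chosen with earlier results of these data known. Named were the members, for each the closest 3 genes in pattern, and per list the 2 highest and 2 lowest ratios among genes with at least 400 UMIs, with fewer printed here. Scanpy 1.11.5, scipy 1.17.1, edgeR 4.0.16 and DESeq2 1.42.0 (scaling only) were used. Motifs were searched in RefSeq windows. Hemoglobin matching, clusters in place of ranges, and leaving out shared barcodes or clusters of 1 library were alternatives chosen after seeing the data. The ratio intervals were tested on simulated counts.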

Additional observations from a re-analysis of the deposited data

Results flagged for a closer look

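In the main setting, the change from control to DKO went in opposite directions in different classes for 3 genes, past 1.5-fold each way. Under other settings each of the 3 contrasts below lost a side. The difference between classes was not tested, since each class has 1 library per genotype. Atf4 was at a log2 ratio of 0.83 in erythroid-like cells under 15% hemoglobin and -1.07 in those at 90% or more. The latter was -0.04 with TMM and 0.05 with median-of-ratios scaling, in a range with 38.6% of all genes called lower. At 75 to 90% Atf4 was at -0.97, and between -1.09 and -0.59 under the alternatives, with 24.2% of all genes called lower. Ppp1r15a was at 1.03 in erythroid-like cells at 90% or more hemoglobin and -1.16 in mature B-like cells. Gadd45a was at 0.62 in erythroid-like cells at 90% or more hemoglobin and -0.98 in mature B-like cells. Without 26 control cells of a cluster that had no DKO cells, the mature B-like values were -0.36 for Ppp1r15a and -0.55 for Gadd45a, and neither was called. On total UMIs neither gene was called higher in the latest erythroid-like clusters, where the medians of all genes lay below 0.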

How the results depend on the processing

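No paired analysis was possible because each genotype has 1 library, so no replicate could be left out either. Of 1300 recomputed ratios of the members, 1228 moved by less than their counting interval, 71 moved further and 1 turned. The 14 higher pairs became 6 with only barcodes above the order-of-magnitude UMI threshold, 27 with no minimum of UMIs and 7 with a minimum of 400 UMIs. The 14 lower pairs became 32 with no minimum and 7 with a minimum of 400, and 12 without clusters of 1 library. A changed minimum also changes how many pairs are read. The share of all genes called was not recomputed under these settings, so the counts describe the settings only. Atf4 at 90% or more hemoglobin turned to 0.0479 with median-of-ratios scaling, which shifts all genes there by 1.11 on the log2 scale. For TMM the shift was 1.03 there and 0.33 at 75 to 90%. Of 1673 recomputed list medians 1543 moved little, 127 moved further and 3 turned, the ATF6 and XBP1 arm at 75 to 90% hemoglobin to 0.23 with cells matched on hemoglobin share, the ATF4 and CHOP targets in macrophage-like cells to -0.0113 with no minimum, and the mTORC1 and heme genes in megakaryocyte-like cells to 0.0638 above the order-of-magnitude threshold. The causes were not tested. Control cells were called here and DKO cells by the authors, and depth per cell was higher in DKO. Trib3 in every class, and Ddit4 in erythroid-like cells, were limited by depth.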
